A study of Ascaris suum with 9 samples.

Results

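Ascaris suum is the large roundworm of pigs, and its larvae were exposed for 3 hours to solvent alone, to 100 µM biochanin A or to 200 µg/mL red clover extract before RNA was taken from whole animals. There were 3 libraries in each of the 3 groups. No label states the solvent, the larval stage, the strain or how much biochanin A the extract held, so the doses of extract and compound cannot be matched. Described here are 64 of 17974 genes, those whose transcripts were lowered mainly by the extract. They were chosen by their measured levels in all 9 libraries, so their lower levels with extract describe the choice and carry no test.

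Biochanin A is an isoflavone, a plant phenolic, and is the methylated form of genistein. Red clover makes it together with other isoflavones such as formononetin and with many compounds of other classes, so an extract exposes an animal to more than its best known constituent. The level of a transcript reflects both how fast it is made and how fast it decays. In RNA from whole larvae, fewer cells of a type and less RNA per cell cannot be told apart. No annotation was used here and the count table gives identifiers only, so no function is given to any gene below and the labelled tissue could not be checked against markers.

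Levels are in CPM, counts scaled to library size, after TMM scaling, which corrects library sizes for differences in composition. With totals of 44324212 to 53786882 counts, 1 CPM stood for 41.3 to 51.6 reads. Gene lengths were not used, so a higher CPM in one gene than in another reflects its reads and not more transcripts. Libraries of a group correlated at 0.986 to 0.994 (Spearman, over genes) and libraries of different groups at 0.977 to 0.99. Nothing says whether the 3 libraries of a group came from separate cultures of larvae, so the errors given here are between libraries and may be technical.

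A gene was kept if it had a mean of at least 5 CPM in control, a log2 ratio of extract to control of -0.4 or less, and a log2 ratio of biochanin A to control of -0.1 or more. Both ratios are of group means with 0.5 CPM added. Every extract library also had to lie below each of the other 6 libraries. Identifiers beginning AgE and the 150 genes with the highest CPM in control were left out. Of the 10490 genes with at least 5 CPM in control, 947 met the limit for extract, and in 859 of these every extract library lay below every control library. The median log2 ratio of biochanin A to control over these 859 was -0.57, and 337 had a ratio with biochanin A as low as that with extract or lower. Of the 859, 788 were below -0.1 with biochanin A. The limit for biochanin A and the gap to its libraries left 65 genes, and leaving out the 150 highest removed 1 more. Separation of the extract libraries from all others was itself found in 485 of the 10490 genes (4.62%). A further 22 genes met both ratio limits but had an extract library that overlapped with the rest.

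**Figure D1:**
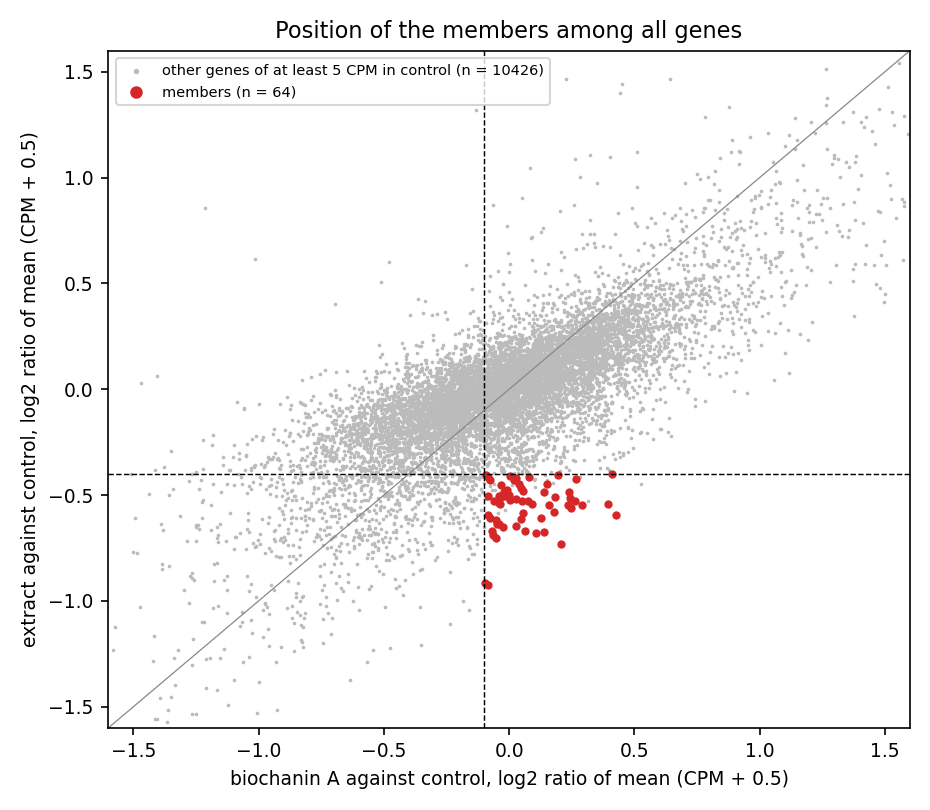
Each point is a gene with at least 5 CPM in control, with its log2 ratio of biochanin A to control on the horizontal axis and of extract to control on the vertical axis (group means of 3 libraries, 0.5 CPM added), dashed lines at the limits of -0.1 and -0.4, and a solid line where both ratios are equal; 98 of the genes, none a member, lie beyond the axes. The 64 members fill the sector below and to the right of the dashed lines, and both ratios use the same 3 control libraries.

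The median member stood at 0.694 times its control level with extract (0.5 CPM added), a log2 ratio of -0.53. The ratios ran from -0.92 to -0.40, with quartiles at -0.61 and -0.48. In all, 43 members were at -0.5 or lower and 17 at -0.6 or lower. Over the 10490 genes the median ratio was -0.006. With biochanin A the members' median log2 ratio was 0.03, from -0.10 to 0.43, and 44 of the 64 lay within 0.1 of 0 on that scale. The difference of the log2 ratios, extract less biochanin A, had a median of -0.60 and ranged from -1.02 to -0.31. Both ratios are taken over the same 3 control libraries, so they are given side by side and not correlated. The gap between the lowest other library and the highest extract library was 1.02-fold to 1.59-fold, and was over 1.2-fold in 19.

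The median log2 ratio of the members to their control mean was -0.03, 0.00 and 0.04 in control libraries 1 to 3. It was 0.05, -0.02 and 0.11 in the biochanin A libraries and -0.53, -0.50 and -0.53 in the extract libraries. The rule required each of the 3 extract libraries to be low in every member, so their similar medians describe the choice. Over all genes of at least 5 CPM these medians lay between -0.018 and 0.004 in every library. The lowest of the extract libraries was library 1 for 28 members, library 2 for 12 and library 3 for 24. The members' summed level was 2169 to 2236 CPM in control, 2218 to 2317 CPM with biochanin A and 1484 to 1545 CPM with extract.

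**Figure D2:**
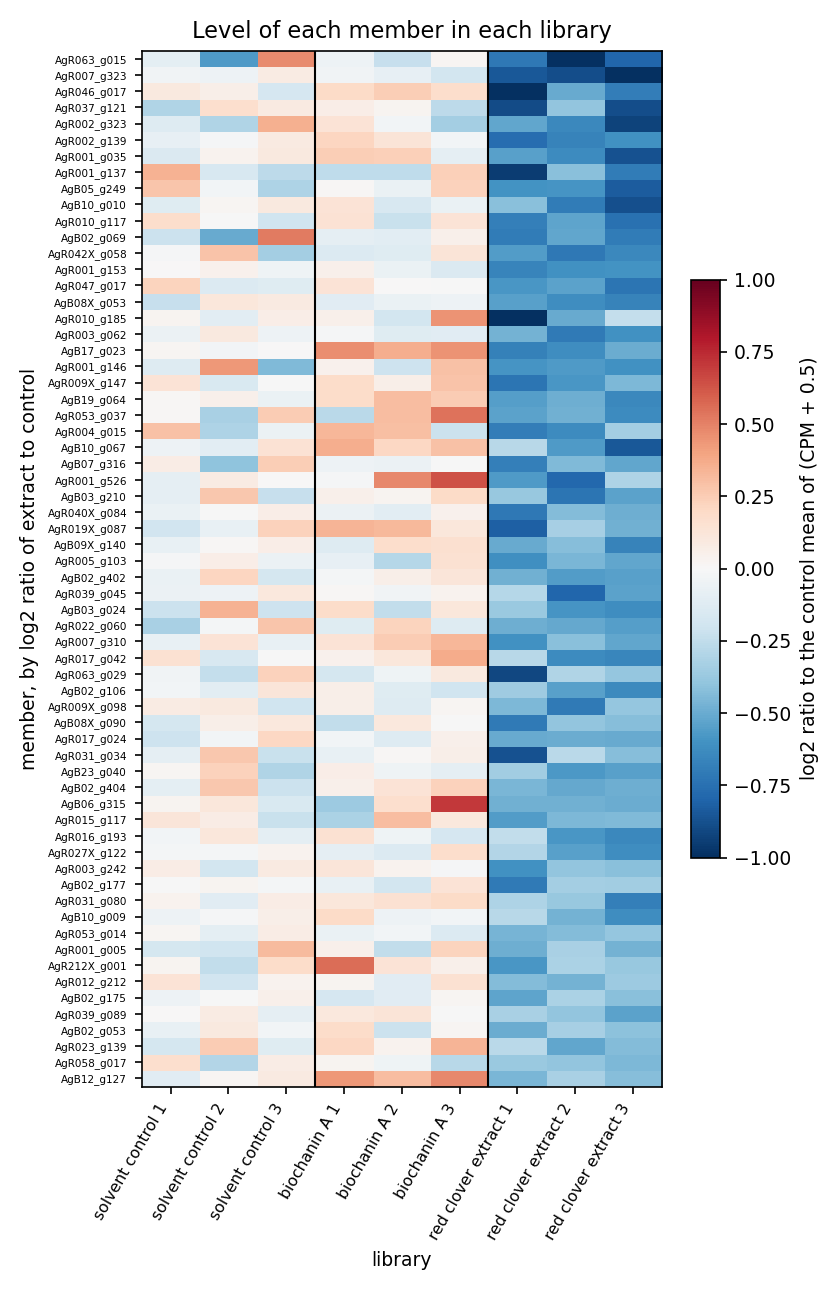
Rows are the 64 members, ordered by their ratio of extract to control, columns are the 9 libraries, and colour is the log2 ratio of (CPM + 0.5) in the library to the control mean, with 4 of 576 cells beyond the colour limits of -1 and 1. The extract columns are blue in every row, and a few rows, such as AgB17_g023 and AgB12_g127, are red in all 3 biochanin A columns.

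AgR007_g323 was separated most widely. It stood at 186, 183 and 202 CPM in control, 186, 180.1 and 168 CPM with biochanin A and 106, 103 and 93.3 CPM with extract. No extract library came near the other groups: the lowest of the remaining libraries was 1.59 times the highest extract library, the largest such gap among the members. Its level with extract, 100.6 ± 6.44 CPM (SD, n = 3), was 47.1% below control (190.3 ± 9.76 CPM), a fitted log2 fold change of -0.92 ± 0.07 (SE). With biochanin A the fitted change was -0.10 ± 0.07, and the ratio of -0.096 places it just inside the limit of -0.1. The nearest gene outside that limit, AgR003_g298, had a ratio of -0.1002.

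AgR063_g015 had the lowest ratio of extract to control, at -0.92, but a low and uneven level. It stood at 5.57, 3.88 and 8.48 CPM in control, 5.74, 5.02 and 6.06 CPM with biochanin A and 3.45, 2.05 and 3.24 CPM with extract. The control libraries differed by more than the gap between control library 2 and the highest extract library. The extract values rest on 101 to 165 reads per library, and the fitted log2 fold change was -1.04 ± 0.28 (SE).

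AgR046_g017 stood at 6.77, 6.58 and 5.58 CPM in control, 7.29, 7.60 and 7.20 CPM with biochanin A and 2.82, 4.30 and 3.71 CPM with extract. Every biochanin A library lay above every control library and every extract library below. The fitted difference between extract and biochanin A was -1.02 ± 0.21 on the log2 scale, against -0.81 ± 0.21 for extract and control.

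AgR002_g139 had a steadier level, with 52.7, 55.3 and 59.7 CPM in control, 64.8, 61.1 and 54.7 CPM with biochanin A and 32.7, 34.96 and 36.5 CPM with extract. The extract libraries lay together and well below the rest, 37.9% below the control mean (log2 fold change -0.69 ± 0.09). AgR002_g323 stood at 8.65, 7.62 and 12.3 CPM in control, 10.5, 9.32 and 7.44 CPM with biochanin A and 6.50, 5.92 and 4.77 CPM with extract, with its lowest biochanin A library close to the highest extract library. Its log2 fold change of -0.74 ± 0.21 was similar in size to that of AgR002_g139 but had a larger error. AgR001_g035 read 12.7, 14.4 and 15.1 CPM in control, 16.7, 16.6 and 13.2 CPM with biochanin A and 9.49, 8.90 and 7.45 CPM with extract, with no overlap and a log2 fold change of -0.71 ± 0.16.

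AgR037_g121 and AgR001_g137 complete the 8 members with the lowest ratios, and both had few reads. AgR037_g121 stood at 5.57, 7.88 and 7.46 CPM in control, 7.30, 7.11 and 5.72 CPM with biochanin A and 3.52, 5.19 and 3.55 CPM with extract, so that extract library 2 lay close under control library 1. AgR001_g137 stood at 6.64, 4.52 and 4.18 CPM in control, 4.20, 4.21 and 6.13 CPM with biochanin A and 2.41, 3.71 and 2.96 CPM with extract, with control library 1 above the other 2. Their log2 fold changes were -0.77 ± 0.22 and -0.76 ± 0.27 (SE).

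**Figure D3:**
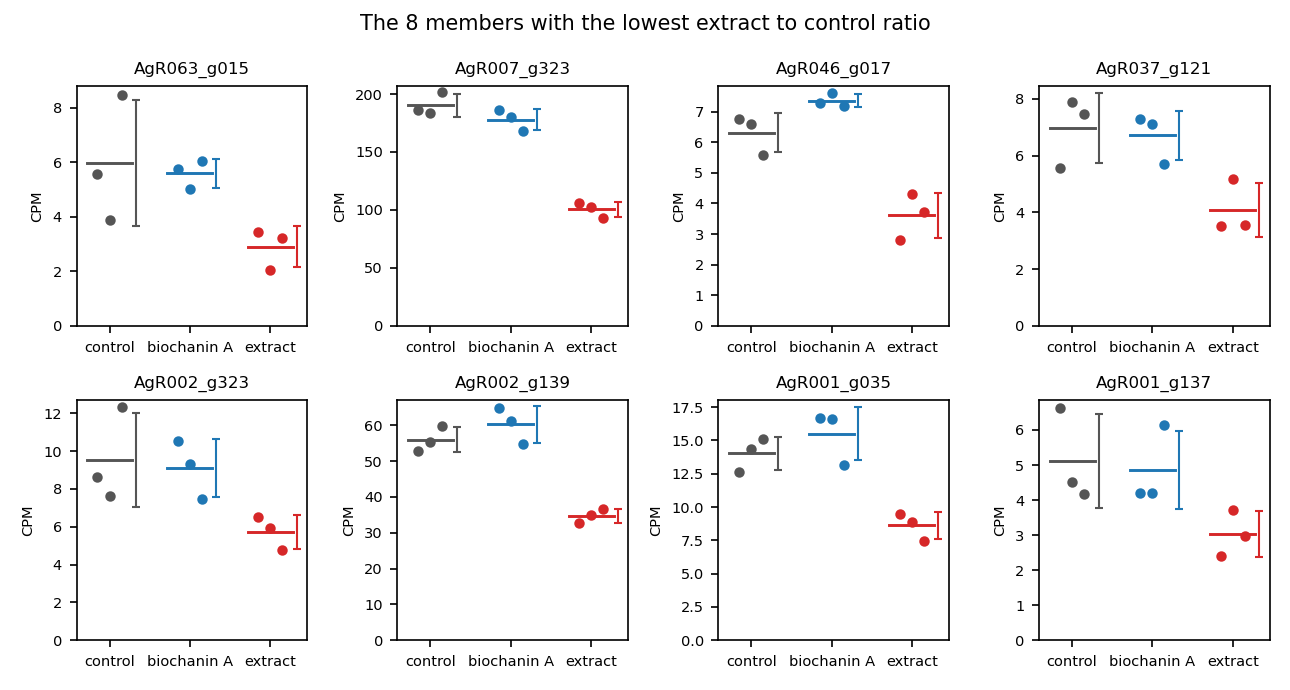
Panels show the 8 members with the lowest ratio of extract to control, with CPM on a linear axis from 0, a point per library, a horizontal line at the group mean and a bar of ± 1 SD beside it (n = 3 per group). The extract points lie below all others in each panel, with the clearest gap for AgR007_g323 and the narrowest for AgR037_g121.

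The members with the most reads had smaller errors. AgR053_g014 stood at 236, 216 and 245 CPM in control, 221, 228 and 211 CPM with biochanin A and 168, 172 and 177 CPM with extract. Its extract libraries, at 172 ± 4.53 CPM (SD, n = 3), were close to each other and 25.8% below control, a log2 fold change of -0.43 ± 0.06 (SE). AgR001_g153 stood at 121, 125 and 118 CPM in control, 125.4, 116 and 109.7 CPM with biochanin A and 76.8, 79.6 and 80.01 CPM with extract, again with the extract libraries tightly grouped (log2 fold change -0.63 ± 0.06).

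In 7 members every biochanin A library lay above every control library. The share over all genes was not counted, and the limit of -0.1 for biochanin A favours such genes, so this count is only a description. AgB12_g127 stood at 126, 139 and 145 CPM in control, 185, 169.5 and 191 CPM with biochanin A and 99.4, 109 and 102 CPM with extract. The 3 groups did not overlap, with control in the middle: biochanin A differed from control by 0.40 ± 0.07 and extract by -0.41 ± 0.07 (log2 fold change, SE). This gene lies nearest inside the limit for extract, at a ratio of -0.4016. AgB17_g023 showed the same order, with 15.9, 15.3 and 15.7 CPM in control, 21.8, 20.3 and 21.6 CPM with biochanin A and 9.63, 10.03 and 10.98 CPM with extract, and changes of 0.43 ± 0.12 and -0.62 ± 0.13. Its difference between extract and biochanin A, -1.05 ± 0.13, was the largest among the members in that fit.

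AgB10_g067 stood at 24.5, 23.6 and 28.04 CPM in control, 32.8, 29.3 and 31.2 CPM with biochanin A and 20.9, 16.9 and 13.9 CPM with extract, with every biochanin A library above control and a fitted change of 0.29 ± 0.13 with biochanin A. AgR001_g526 stood at 7.88, 8.92 and 8.40 CPM in control, 8.33, 11.9 and 13.4 CPM with biochanin A and 5.497, 4.66 and 6.69 CPM with extract. Here only biochanin A libraries 2 and 3 lay above the control libraries, and the change with biochanin A was 0.41 ± 0.20. Altogether 38 of the 64 members had a ratio above 0 with biochanin A and 11 a log2 ratio above 0.2. The limit of -0.1 by itself raises the share above 0. Over the 10490 genes of at least 5 CPM in control this log2 ratio had a median of -0.02 and an upper quartile of 0.21. Ratios above 0.2 were thus not particular to the members. The 7 members without overlap between biochanin A and control were the 4 genes AgB12_g127, AgB17_g023, AgB10_g067 and AgR046_g017, and also AgR007_g310, AgB19_g064 and AgR031_g080. The last 3 were picked out after their values were seen. AgB19_g064 stood at 13.5, 13.9 and 12.7 CPM in control, 15.2, 16.6 and 16 CPM with biochanin A and 8.97, 9.36 and 8.37 CPM with extract. AgR007_g310 stood at 30.6, 35.4 and 30.6 CPM in control, 35.5, 38.5 and 40.7 CPM with biochanin A and 20.97, 24 and 22.3 CPM with extract. AgR031_g080 had the smallest step from control to biochanin A of these 3, with 22.6, 20.3 and 23.2 CPM in control, 23.8, 24.5 and 25.2 CPM with biochanin A and 17.7, 16.8 and 13.5 CPM with extract.

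All 64 members passed the filter on low counts and entered the fit over 15177 genes with edgeR's quasi-likelihood test. At an adjusted p below 0.05, 49 of the 64 were called lower with extract than with control, where 8.0% of all tested genes were, and 54 were called lower with extract than with biochanin A, where 7.39% were. Of the 10490 genes with at least 5 CPM in control, as all members had, 11% and 9.9% were called lower in these comparisons. Both comparisons were called for 47 members and neither for 8. The rule used all 3 contrasts, so these counts and those for biochanin A below say nothing beyond the choice itself. The 15 members not called against control had a median control level of 6.06 CPM, against 24.7 CPM for the 49 called, and similar median ratios of -0.51 and -0.53. Among the members named in this report, AgR001_g137, AgR001_g526, AgR058_g017, AgB02_g069 and AgR001_g005 were not called against control. AgR031_g092, just outside the rule, was not called either. Of all tested genes, 18.3% were called lower with biochanin A than control, and of those with at least 5 CPM in control 24.6%. The limit of -0.1 kept such genes out, and 0 members were called lower by edgeR (0 at an unadjusted p below 0.05) or DESeq2. Higher with biochanin A were 2 members by edgeR, AgB12_g127 and AgB17_g023. Of tested genes 16.9% were, and of those with at least 5 CPM in control 20.8%. These shares are no reference for members chosen on this contrast. Without control library 2 the number of members called higher was 5, and DESeq2 gave 3. The share of all genes called higher was not counted in those fits. The SE of a member's log2 fold change with extract ran from 0.061 to 0.28, with a median of 0.14, and the median log2 fold change over all 15177 tested genes was -0.0084. For biochanin A against control the members' median was 0.02, beside -0.02 over all tested genes.

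Each library was also left out in turn, the rule applied to the other 8, and the genes it kept read in the library left out. Only the level in that library was unused: the libraries it is set against had been used to keep the genes, which by itself moves the shares and ratios in the chosen direction. The shares over all eligible genes are therefore a description and not what no difference would give. The limits of the rule were set with all 9 libraries known, and TMM factors were those of all 9. Without extract library 1, 2 or 3 the rule kept 84, 91 and 87 genes, of which 55, 62 and 58 were among the 64. In the extract library left out, 67 of the 84 genes (79.8%), 70 of the 91 (76.9%) and 71 of the 87 (81.6%) lay below every control and biochanin A library. Over all 10317 eligible genes, those with at least 5 CPM in control and outside the identifiers and the 150 genes left out, the shares were 16.2%, 10.2% and 11.4%. The median log2 ratio to control in the library left out was -0.37, -0.42 and -0.44, smaller than the -0.53, -0.505 and -0.51 in the libraries that chose the genes. The ratio in the extract library left out was thus nearer 0 than in the libraries used, and part of the genes overlapped with the other groups there.

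Control and biochanin A libraries were left out in the same way. The rule kept 71 to 77 genes without a control library and 71 to 74 without a biochanin A library. The extract libraries they are set against are the 3 that the rule required to be lowest, so a high share is largely built in. The control library left out lay above every extract library for 90.1%, 78.9% and 87% of the kept genes, against 35.3% to 38% over all eligible genes. For the biochanin A libraries the shares were 91.5%, 91.9% and 90.1%, against 31.9% to 33.8%. The median log2 ratio of these genes in the biochanin A library left out, relative to control, was -0.05, -0.06 and -0.004. In the control library left out, relative to the other 2, it was -0.08, -0.04 and -0.06.

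**Figure D4:**
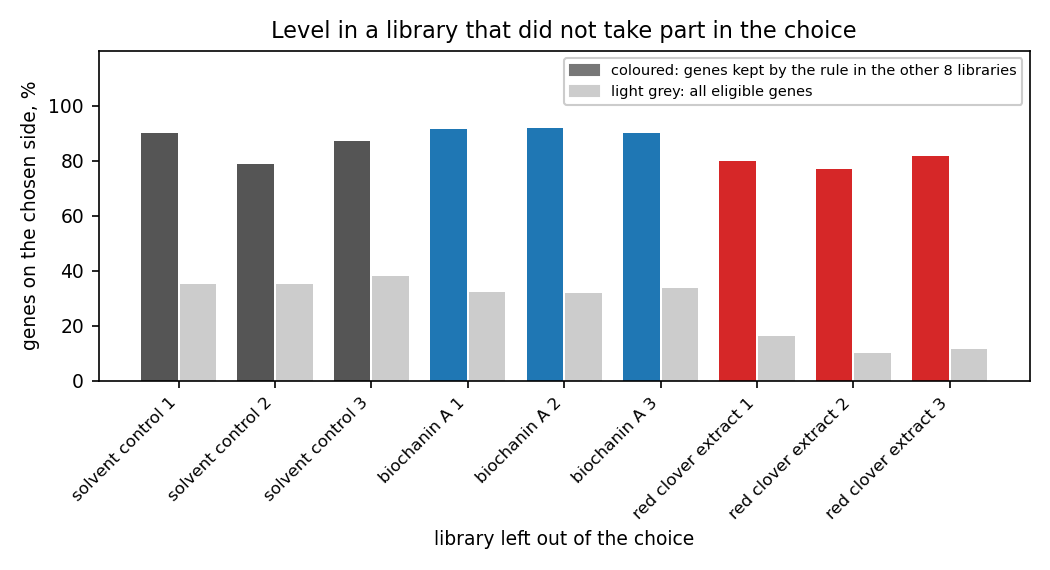
Coloured bars give the share of genes kept by the rule in the other 8 libraries that lie on the chosen side in the library left out (an extract library below all control and biochanin A libraries, any other library above all extract libraries used), and light grey bars the same share over all eligible genes. The coloured bars stand between 76.9% and 91.9% and the grey bars between 10.2% and 38%.

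Members with few reads made up a larger share than such genes do among all genes. Of the 64, 18 (28.1%) had 5 to 10 CPM in control and 19 (29.7%) had 10 to 20 CPM, ranges that hold 13% and 15.7% of the 10490 genes. Only 5 (7.81%) had 100 CPM or more, against 21.3%. Counts in the extract libraries ran from 93 to 9031 reads per member and library with a median of 542. The control libraries varied by a median of 11% (coefficient of variation) for the members, against 8.23% over the eligible genes, and the extract libraries by 9.06% against 7.13%. AgB02_g069, picked out after its values were seen, had the narrowest gap: it stood at 4.33, 3.46 and 7.55 CPM in control, 4.77, 4.71 and 5.31 CPM with biochanin A and 2.95, 3.40 and 2.96 CPM with extract, so that extract library 2 lay barely under control library 2.

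By the form of the identifier, 35 members begin AgR without an X, 7 begin AgR with an X after the first number, 19 begin AgB and 3 begin AgB with an X. The corresponding shares were 54.7%, 10.9%, 29.7% and 4.69%, beside 52.2%, 15%, 27.3% and 5.55% of the eligible genes. The members fall on 39 stems, the part of the identifier before the gene number. AgB02 carries 7 of them and AgR001 carries 6, of 305 and 358 eligible genes. No source used here says what the stems stand for.

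There were 3 pairs of members with gene numbers at most 3 apart on the same stem. AgB02_g402 stood at 32.2, 39.2 and 29.8 CPM in control, 33.3, 35.1 and 36.6 CPM with biochanin A and 23.99, 22.7 and 23.02 CPM with extract. AgB02_g404 stood at 32.7, 42.2 and 30.1 CPM in control, 36.2, 38.6 and 41.2 CPM with biochanin A and 25.4, 24.4 and 24.9 CPM with extract. The pair varied together from library to library, with control library 2 highest in both, and their ratio stayed between 0.89 and 0.989 in all 9 libraries. After the group means were removed, their log2 levels correlated with a Pearson r of 0.995 over the 9 libraries, the highest of the 2016 pairs of members. AgB02_g403, the identifier between them, had only 1.13 CPM in control, and AgB02_g401, beside them, stood at 56.6 ± 5.76 CPM in control and 60.9 ± 5.03 CPM with extract.

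AgB10_g009 and AgB10_g010 were the second such pair. AgB10_g009 stood at 45.4, 46.5 and 49.03 CPM in control, 53.7, 45.2 and 46.1 CPM with biochanin A and 38.8, 33.8 and 30.3 CPM with extract. AgB10_g010 stood at 27.9, 30.6 and 32.4 CPM in control, 33.3, 27.1 and 28.9 CPM with biochanin A and 22.6, 18.5 and 16.2 CPM with extract. Within each group both genes put the 3 libraries in the same order, and with extract both were highest in library 1 and lowest in library 3. Their r within groups was 0.977, the next highest of the 2016. The median over all member pairs was 0.02. Over the 19971 pairs of eligible genes with numbers at most 3 apart it was 0.08, and 2.79% of those pairs exceeded 0.9. Whether reads shared between near-identical or overlapping genes enter these pairs was not tested, since sequences and positions were not used here.

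The third pair was looser. AgB02_g175 stood at 25.3, 26.1 and 27.2 CPM in control, 23.2, 24.2 and 26.6 CPM with biochanin A and 18.1, 20.98 and 19.5 CPM with extract. AgB02_g177 stood at 13.7, 13.96 and 13.6 CPM in control, 13.03, 11.99 and 15.2 CPM with biochanin A and 8.20, 10.8 and 10.7 CPM with extract. The extract libraries were the 3 lowest in both genes, but the order of libraries agreed in 1 group only and r was 0.784. AgB02_g176, between them, had at most 0.448 CPM in any library.

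**Figure D5:**
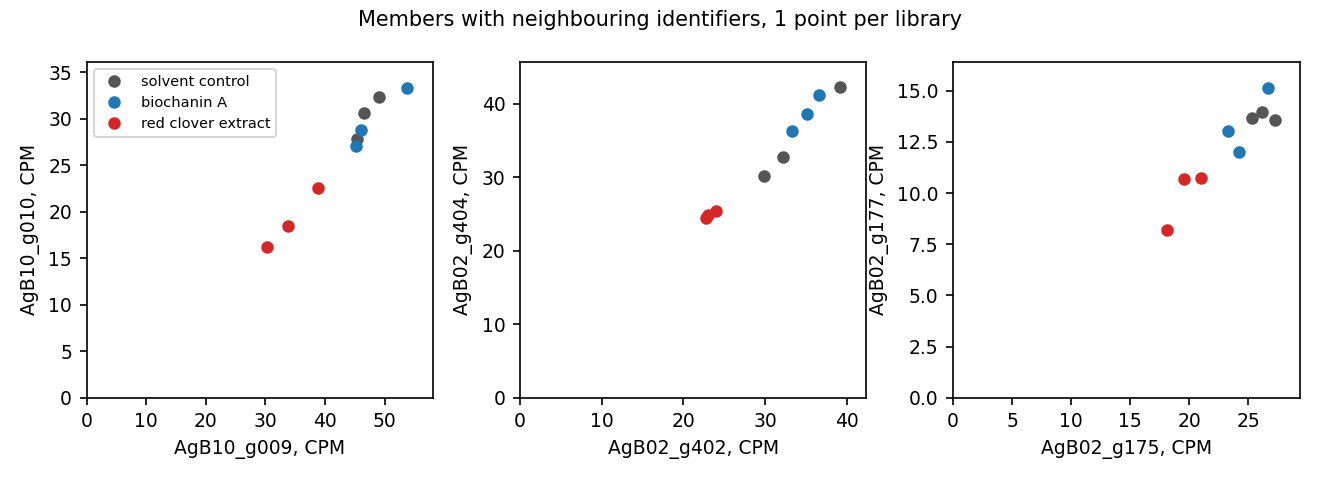
Each panel plots the CPM of a member against that of its neighbour by gene number on linear axes from 0, with a point per library coloured by group. The points of AgB02_g402 with AgB02_g404 and of AgB10_g009 with AgB10_g010 lie close to a line within each group, with the extract libraries at the low end.

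The AgB10 stem held further genes that were low with extract. Over all stems 947 of the 10490 genes met the limit for extract, and such genes were not counted by stem. AgB10_g005, the gene removed because it ranked among the 150 highest in control, stood at 688, 710.4 and 689.6 CPM in control, 677, 652 and 681 CPM with biochanin A and 503, 494 and 504 CPM with extract. Its extract libraries lay far below the rest, 28.1% under control (log2 fold change -0.48 ± 0.05). AgB10_g006, picked out after its values were seen, stood at 91.1, 107 and 84.8 CPM in control, 82.6, 74.7 and 84.2 CPM with biochanin A and 64.2, 60.8 and 60.8 CPM with extract. It was lower with extract than in every other library too, but its log2 ratio of -0.23 with biochanin A kept it out of the members. AgB10_g007 and AgB10_g008, which lie between these and the pair, were at 248 ± 4.93 and 105 ± 4.16 CPM in control and 264 ± 23.8 and 107 ± 4.36 CPM with extract (SD, n = 3), so the low levels with extract were not shared by the whole run of identifiers.

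Outside the rule, AgB10_g005 also had the pattern most like the members' mean log2 level over the 9 libraries, with a Pearson r of 0.973. It met every other criterion of the rule, and the members were chosen for this step between groups, so a high r is largely built in. AgB23_g052 (r of 0.953) and AgR063_g024 (0.951) came next. AgB23_g052 stood at 48.05, 44.7 and 45.9 CPM in control, 45.9, 48.4 and 46.1 CPM with biochanin A and 37.1, 38.2 and 38.9 CPM with extract. AgR063_g024 stood at 248, 246 and 237 CPM in control, 239, 246 and 245 CPM with biochanin A and 201, 206 and 215 CPM with extract. In both the extract libraries were the lowest without overlap, and their log2 ratios of extract to control, -0.28 and -0.23, were nearer 0 than the rule asked for.

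The limits have genes close by on either side. AgR058_g017, at a ratio of -0.403, lies just inside the limit for extract, with 16.1, 11.6 and 15.1 CPM in control, 14.5, 13.9 and 11.7 CPM with biochanin A and 10.9, 10.7 and 10.3 CPM with extract. Just outside are AgR031_g092 at -0.399 and AgR080_g001 at -0.395. AgR031_g092 stood at 9.60, 8.72 and 7.22 CPM in control, 8.93, 8.54 and 7.73 CPM with biochanin A and 6.04, 6.16 and 6.80 CPM with extract. AgR080_g001 stood at 40.4, 34.4 and 38.9 CPM in control, 39.2, 37.5 and 41.2 CPM with biochanin A and 26.3, 29.2 and 30.6 CPM with extract. No extract library overlapped with the others in either, so these genes differ from members only in the size of the ratio. For the level in control, AgR001_g005 at 5.04 CPM was inside and AgB03_g208 at 4.96 CPM outside.

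Which genes belong to the 64 depends on how the libraries are scaled. When library totals replaced TMM, the log2 ratios of all genes of at least 5 CPM shifted by a median of -0.15 with extract and -0.21 with biochanin A. The members' median ratio with biochanin A was then -0.18, beside -0.23 over all genes of at least 5 CPM, and 19 of the 64 still met the limit of -0.1. The rule kept 66 genes under that scaling, of which 18 were among the 64. In all 64 the mean ratio for extract was still below 0 and below that for biochanin A. In 63 every extract library still lay below every other. The rule had required low extract ratios and separated extract libraries, and the members' differences of extract less biochanin A were all -0.31 or lower. The shifts were too small to undo these ratios, so these counts are largely built in. The share of all genes with separated extract libraries was not counted under that scaling. Called lower with biochanin A than control were then 7 members in place of 0, and called higher 1 in place of 2. Of all 15177 tested genes, 5188 were then called lower with biochanin A in place of 2780, so the rise was not particular to the members. The share of all genes called higher was not counted under that scaling. With DESeq2 size factors 63 of the 64 were kept.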

How the data were processed

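RNA of whole larvae, taken with TRIZOL per the labels' protocols, was sequenced in 9 libraries, 3 per group. The authors deposited unnormalized counts of reads for every gene and library, per the file headers, and their sheet name points to annotation WBPS19. DESeq2 is named without a role, per the submitters' processing notes. No source used here gives the aligner, the counting tool, strandedness or the treatment of reads matching several genes, and near-identical, overlapping or antisense genes may share reads. Columns were matched to samples by library name, and 0 columns had no sample. Replicates differed beyond sampling noise (chi-square over its degrees of freedom, 17.1 to 124), so none was treated as a library deposited in duplicate; this does not show that they came from separate cultures. The labels give no batch.

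Of 17974 genes, filterByExpr kept 15177. After TMM scaling, a single edgeR model of the 3 groups without a block (version 4.0.16, under R 4.3.3) gave quasi-likelihood tests with 6 residual degrees of freedom. P-values were adjusted by Benjamini-Hochberg over all tested genes with a threshold of 0.05. The fit was tested on simulated data. DESeq2 1.42.0, other scalings and limits, and leaving out each library were the alternatives.

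The members and lists were chosen with earlier results of these data known. Named were the 8 members of lowest ratio of extract to control, the 4 of highest control CPM, the 4 of highest ratio of biochanin A to control, the 2 genes nearest each side of the limit for extract, neighbours by identifier, and the 3 other genes most like the members' pattern. AgR003_g298, AgR001_g005 and AgB03_g208, nearest the other limits, and AgB10_g007 and AgB10_g008 were added without a mark. Other genes picked out after their values were seen are marked as such. Lists of genes by product were not counted, because the identifiers are paired with no product in the sources used here, and no sequences were used.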

Additional observations from a re-analysis of the deposited data

How the results depend on the processing

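A limit of -0.3 for extract gave 126 genes in place of 64, and limits of 0 and -0.2 for biochanin A gave 38 and 112. The other limits, pseudocounts and scalings tried gave between 43 and 77, and leaving out 1 library gave 71 to 91. At an adjusted p below 0.01, 30 members were called lower with extract than control and 31 lower than with biochanin A. Of all 15177 tested genes, 687 and 565 were. The rule used these contrasts, so the counts of members called describe the choice. Leaving out 1 library gave 38 to 48 and 38 to 57, and none was called lower with biochanin A in those fits. Of the 15459 to 15517 genes tested there, 859 to 1206, 709 to 1355 and 2268 to 2880 were called lower in these 3 contrasts. Library totals in place of TMM called 7 members lower with biochanin A, where TMM called 0. Of all 15177 tested genes they called 5188 lower, where TMM called 2780. Libraries with the same number did not deviate together (correlations from -0.075 to 0.069), so the numbers gave no pairing. A fit with a replicate block called 49 members against control, 52 against biochanin A and 0 lower with biochanin A. Of all 15177 tested genes it called 1202, 1116 and 2756 lower. Of 416 values of named genes under the alternatives, 376 kept direction and side of the threshold, 27 fell short of it, 13 passed it anew and 0 reversed. All are for extract against control. In each of these genes every extract library lay below every control library, so the lack of reversals is largely built in. In 12 members an extract library held under 200 reads, which limits the precision of their values.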
